A study of Mus musculus with 8 samples.

Results

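The genes described here are 32 enzymes of purine and pyrimidine nucleotide synthesis, found by symbol among the 41730 entries of the count table. They were chosen by name, from the textbook pathway, with earlier results of these data known. All 32 are in the table and passed the filter on low counts. The RNA came from mouse OT-I cells, which are CD8+ T cells with a transgenic receptor specific for SIINFEKL, a piece of ovalbumin, sorted after culture with bone marrow-derived dendritic cells loaded with that peptide. Control cultures held the solvent DMSO (4 libraries, replicates 1 to 4), and treated cultures held 2 µM RGX-104, a small molecule that activates liver X receptors (4 libraries, replicates 5 to 8). All cells carried the OT-I receptor and all met peptide-loaded dendritic cells, so both groups were stimulated. The labels name neither the age of the mice nor whether each library had its own culture or animal, so the p-values reflect how these samples vary, which may be technical variation alone.

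A dividing T cell has to copy its genome and build ribosomes, and both need nucleotides. Purines are built on ribose phosphate, activated as PRPP, atom by atom up to inosine monophosphate (IMP), which is then turned into AMP or GMP. Pyrimidines are built as a free ring that is attached to PRPP, giving UMP, from which UTP and CTP are made. Salvage enzymes reuse free bases and nucleosides, and ribonucleotide reductase with thymidylate synthase supplies the deoxynucleotides for DNA. In activated T cells these genes are known to be induced, in part by the transcription factor MYC, while the genes for deoxynucleotide supply are also tied to S phase through E2F factors.

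No gene of the 32 passed an adjusted p under 0.05 between control and RGX-104 (edgeR quasi-likelihood test with Benjamini-Hochberg adjustment over 12162 genes). Across all genes tested 2.66% passed that threshold, 0.888% higher and 1.78% lower in RGX-104, and genes that passed are called below. Without adjustment 5 of the 32 had a p under 0.05, with Prps2, Impdh1, Cad and Dtymk higher and Tyms lower. The share of all genes at that level was 13.8%, with 6.28% higher and 7.52% lower, so the share among the 32 was near the background. DESeq2 and limma-voom gave 4 higher and 2 lower at that level and likewise no call after adjustment. Estimated differences were small: the median log2 fold change was 0.06, and single values ran from -0.27 for Ctps2 to 0.21 for Prps2. Of the 32 values 24 were above 0 (75%), against 50.6% of all genes, whose median was 0.00.

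The intervals of these differences were mostly narrow. They rest on the variation among these libraries, which may be technical alone, so they need not hold across cultures or animals. For 31 of the 32 genes (96.9%) the 95% interval of the fold change lay within 1.5-fold in either direction, which is 0.585 on the log2 scale. Among all genes tested this held for 60.2%, and among the 7388 genes in the same range of mean level (11.1 to 947 CPM, counts scaled to library size) for 91.3%. The exception was Ctps2, the gene with the lowest counts of the 32, whose interval ran from -0.64 to 0.09. Standard errors of the log2 fold change ran from 0.05 for Nme1 to 0.18 for Ctps2. Their median was 0.0625 for the 32 genes and 0.101 for the 7388 genes. Those genes share the outer limits of the range only, so the 2 percentages compare sets of unlike precision.

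**Figure D1:**
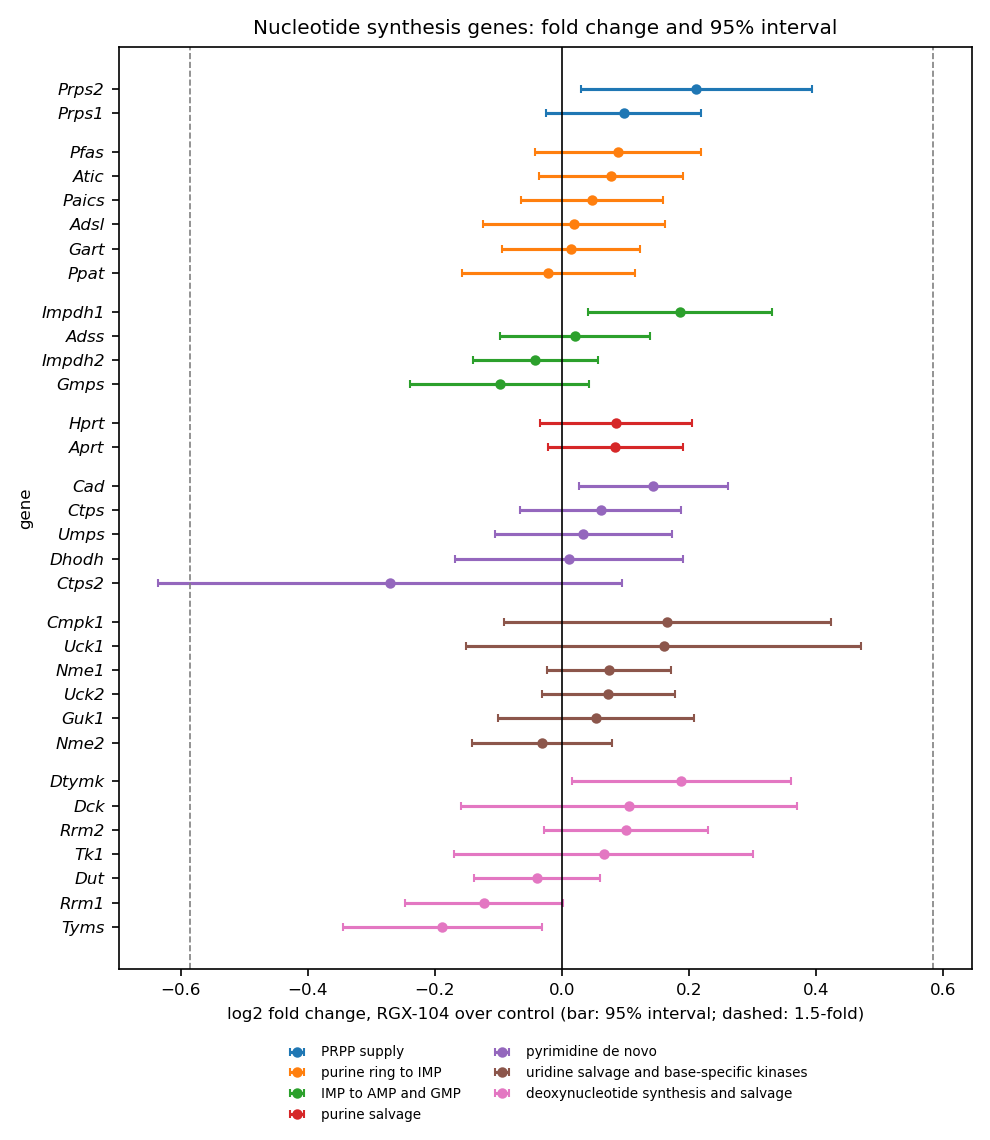
Log2 fold change of RGX-104 over control (horizontal axis) for each of the 32 genes (rows, coloured by pathway step), with bars for the 95% interval and dashed lines at 1.5-fold. All points lie between -0.27 and 0.21, and the interval of Ctps2 alone crosses a dashed line.

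Added up, the 32 transcripts made 7031, 7057, 7023 and 6978 CPM in the control libraries and 7082, 7162, 7225 and 7175 CPM in the RGX-104 libraries. The groups' sums did not overlap, and the mean was 1.98% higher in RGX-104 (7161 ± 59.2 CPM against 7022 ± 32.6 CPM in control, SD, n = 4 per group). With library totals in place of the scaling factors the difference was 2.25% and the groups overlapped. A CPM is a share of a library, so RNA per cell was not measured, and in these bulk samples fewer cells of a type and less RNA per cell cannot be told apart.

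Total counts per library ranged from 13144704 to 15966972, and the lowest count of any of the 32 genes in a library was 137 (Ctps2). Markers of CD8 T cells were present, and edgeR called 4 of 9 tested higher in RGX-104 (Cd8a, Cd8b1, Lat and Thy1). Their summed level was 1799 to 1841 CPM in control and 2140 to 2235 CPM in RGX-104. Summed dendritic cell markers ran from 586 to 655 CPM in control and from 575 to 676 CPM in RGX-104, most of it Ccr7, which T cells also express. Of 9 tested none was called by edgeR or limma-voom, and DESeq2 called Batf3 lower. In edgeR 3 of the 9 had an unadjusted p under 0.05, Ccl22, Fscn1 and Batf3, all lower in RGX-104, against 7.52% of all genes. Of the 9 log2 fold changes 6 were negative and 3 positive, so the similar sums do not show equal levels of these markers. The class II genes H2-Aa, H2-Ab1 and H2-Eb1 have repeated entries and are listed at 0, as are the cell cycle genes Cdc45 and Kif11, whose symbols are also repeated, so these zeros say nothing of expression. Cd74, the class II invariant chain, has no repeated entry and had 76 to 125 counts per library. Macrophage and monocyte markers summed to 43.0 to 50.1 CPM in control and 47.6 to 55.9 CPM in RGX-104, with 0 of 8 called and 0 at an unadjusted p under 0.05. The same counts were 0 for 8 tested markers of B cells, neutrophils, erythroid cells, and CD4 and regulatory T cells, in edgeR, DESeq2 and limma-voom, and Cd4 itself had 0 to 2 counts per library. Erythroid markers were present, at 89.2 to 93.3 CPM summed in control and 78.1 to 97.3 CPM in RGX-104. Summed markers of B cells, CD4 and regulatory T cells, and neutrophils reached at most 2.35, 6.14 and 7.66 CPM in a library. The part of other cell types in the values of the 32 genes was not tested.

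Promoter sequences of 30 of the 32 genes were matched in RefSeq (GRCm38.p6). Pfas and Dhodh were not matched. Windows ran from 250 bases before to 50 after a start site, and motifs were searched on both strands. The E-box CACGTG, which MYC and its partner MAX bind, was present for 6 of 30 genes (20%): Atic, Dtymk, Impdh2, Nme1, Paics and Tyms. It was present for 11.9% of the 9365 tested genes with a window and for 8.09% of all 27025 genes with one. An E2F motif (TTTGGCGC, TTTCCCGC, TTTCGCGC or TTTGCCGC) was present for Ppat and Prps2 (6.67%, against 5% of tested and 2.6% of all genes). The letters TGATGNAA, the core of the element through which ATF4 acts, were present for 1 gene, Prps1 (3.33%, against 2.77% of tested and 4.51% of all genes). No matches of different motifs overlapped in the windows of these genes, and the same was true of all but 4 of 32851 windows. These are matches of letters only.

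The 250 bases before the start site are shown, 5′ to 3′ on the gene's own strand, for Ppat and Paics, which catalyse steps of purine ring building and start beside each other on opposite strands, and for Prps1 beside asparagine synthetase (Asns), a gene that fell. Capitals mark the E2F motif TTTCCCGC in Ppat (on the other strand, so it reads as its reverse complement), the E-box in Paics and TGATGNAA in Prps1 and Asns. The windows are chr5:76951579-76951828 (minus strand), chr5:76951052-76951301 (plus), chrX:140456353-140456602 (plus) and chr6:7693210-7693459 (minus).
Ppat: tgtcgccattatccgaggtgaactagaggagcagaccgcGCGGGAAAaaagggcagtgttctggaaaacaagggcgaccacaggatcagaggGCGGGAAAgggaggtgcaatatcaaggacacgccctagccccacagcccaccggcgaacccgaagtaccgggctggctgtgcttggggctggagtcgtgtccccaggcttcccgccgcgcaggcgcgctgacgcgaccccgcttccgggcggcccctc
Paics: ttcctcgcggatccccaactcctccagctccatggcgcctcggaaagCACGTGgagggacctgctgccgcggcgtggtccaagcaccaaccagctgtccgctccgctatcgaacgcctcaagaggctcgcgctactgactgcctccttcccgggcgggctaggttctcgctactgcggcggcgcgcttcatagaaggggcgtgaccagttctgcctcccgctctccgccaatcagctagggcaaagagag
Prps1: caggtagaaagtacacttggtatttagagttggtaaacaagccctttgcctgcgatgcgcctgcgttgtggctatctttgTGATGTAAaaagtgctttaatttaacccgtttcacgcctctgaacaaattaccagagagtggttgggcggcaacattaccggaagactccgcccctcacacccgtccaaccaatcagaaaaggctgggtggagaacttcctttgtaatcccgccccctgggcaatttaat
Asns: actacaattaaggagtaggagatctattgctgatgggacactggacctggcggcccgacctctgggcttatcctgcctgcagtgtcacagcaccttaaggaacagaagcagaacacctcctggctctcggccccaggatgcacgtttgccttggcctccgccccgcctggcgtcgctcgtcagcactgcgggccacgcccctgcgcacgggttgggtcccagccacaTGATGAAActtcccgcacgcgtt
The start sites of Ppat and Paics are 276 bases apart, and the genes overlap at their 5′ ends, where their exons share 272 bases. The window of each therefore lies inside the other gene. With the same 8-base pattern in its window as Asns, Prps1 had a log2 fold change of 0.10 ± 0.06 (± SE). That of Asns was -0.91 ± 0.14. The pattern began 170 bases before the start site in Prps1 and 23 bases before it in Asns. Mthfd2, Atf4, Cenpe, Nusap1 and Hmgb2 also fell, without a match of the pattern in their windows. Any part of the pattern in these values was not tested.

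PRPP synthetase makes the activated ribose that purine, pyrimidine and salvage reactions all use, and mice have it as Prps1 and Prps2, both on chromosome X. Their summed level was 279 to 319 CPM in control and 309 to 344 CPM in RGX-104. Prps1 was at 240, 225, 267 and 245 CPM in control and at 251, 252, 281 and 262 CPM in RGX-104, with overlap between the groups. Prps2 (chrX:167346320-167382872, GRCm38) was at 52.4, 53.8, 51.4 and 50.7 CPM in control and at 65.7, 57.4, 63.9 and 54.2 CPM in RGX-104. The Prps2 libraries of the groups did not overlap, though replicate 8 stood just above the highest control, and the log2 fold change of 0.21 ± 0.09 (95% interval 0.03 to 0.39) was not called (adjusted p = 0.264). Groups without overlap were found for 2 of the 32 genes (6.25%), Prps2 and Impdh1, and for 8.2% of all genes tested.

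The purine ring is built by the amidotransferase Ppat and by Gart, Pfas, Paics, Adsl and Atic, of which Gart, Paics and Atic are multifunctional. None of the 6 genes was called, 5 had a positive log2 fold change, and their median was 0.03. Summed, they made 1625 to 1686 CPM in control and 1639 to 1752 CPM in RGX-104. Paics was at 484, 549, 539 and 551 CPM in control and at 542, 563, 583 and 505 CPM in RGX-104. Atic, which closes the ring, was at 299, 282, 300 and 284 CPM in control and 315, 313, 323 and 279 CPM in RGX-104. For both genes replicate 8 was the lowest RGX-104 library, within the control range for Paics and just below it for Atic, and the log2 fold changes were 0.05 and 0.08. Pfas, which adds a nitrogen from glutamine, went from 139, 150, 136 and 151 CPM to 142, 151, 159 and 161 CPM, a log2 fold change of 0.09 ± 0.06. Ppat, the committed step, ran from 189 to 237 CPM in control and from 194 to 221 CPM in RGX-104 (log2 fold change -0.02, 95% interval -0.16 to 0.11). Over all 8 libraries Gart lay between 295 and 343 CPM and Adsl between 134 and 165 CPM.

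From IMP, Impdh1 or Impdh2 and then Gmps lead to GMP, and Adss with Adsl leads to AMP. These 4 genes summed to 821 to 868 CPM in control and 826 to 861 CPM in RGX-104. Impdh1 (chr6:29200436-29216364), a rate-limiting step towards GTP, was at 117, 103, 103 and 119 CPM in control and at 123, 136, 124 and 120 CPM in RGX-104. The groups did not overlap, with less than 1 CPM between the highest control and the lowest RGX-104 library, and the log2 fold change was 0.19 ± 0.07 (adjusted p = 0.212, not called). Impdh2, the form induced in dividing lymphocytes, was at 371, 369, 375 and 376 CPM in control and at 373, 344, 366 and 365 CPM in RGX-104, a log2 fold change of -0.04 with a 95% interval from -0.14 to 0.06. Reads of Impdh2 are uncertain, because 81.5% of the 50-base stretches in the last 400 bases of its transcript also occur in the pseudogene Impdh2-ps. Gmps, which adds the last nitrogen of GMP, was at 161, 148, 163 and 146 CPM in control and at 146, 161, 133 and 137 CPM in RGX-104, so replicates 7 and 8 were lower than every control library and replicates 5 and 6 were within the control range. Adss ranged from 200 to 222 CPM over the 8 libraries.

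Purine bases are salvaged by Hprt, which reuses hypoxanthine and guanine, and by Aprt, which reuses adenine. Hprt was at 193, 174, 178 and 185 CPM in control and at 191, 188, 189 and 206 CPM in RGX-104. Aprt was at 329, 296, 325 and 304 CPM in control and at 320, 333, 335 and 342 CPM in RGX-104. Replicate 5 of Aprt and replicates 5 to 7 of Hprt lay within the control range. The log2 fold changes were 0.09 ± 0.06 for Hprt and 0.08 ± 0.05 for Aprt, and their summed level was 470 to 522 CPM in control and 511 to 548 CPM in RGX-104.

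Pyrimidines start with Cad, a protein that carries the opening enzyme activities, continue with the mitochondrial enzyme Dhodh and end in UMP with Umps, after which Ctps and Ctps2 make CTP. Summed, the 5 genes made 610 to 644 CPM in control and 643 to 688 CPM in RGX-104, so the ranges met at their edges. Cad (chr5:31054620-31078479) was at 228, 206, 201 and 218 CPM in control and at 227, 230, 249 and 235 CPM in RGX-104. Replicate 5 lay just under the highest control library, and the log2 fold change of 0.14 ± 0.06 (95% interval 0.03 to 0.26) was not called (adjusted p = 0.236). Ctps was at 168, 186, 164 and 179 CPM in control and at 193, 177, 171 and 187 CPM in RGX-104. Ctps2 was at 13.1, 12.5, 9.53 and 13.3 CPM in control and at 9.75, 9.8, 9.17 and 11.4 CPM in RGX-104, where the control library of replicate 3 lay among the RGX-104 libraries. Dhodh ranged from 56.0 to 68.6 CPM and Umps from 154 to 186 CPM over the 8 libraries, with log2 fold changes of 0.01 and 0.03.

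Uridine and cytidine are salvaged by Uck1 and Uck2, and the kinases Cmpk1, Guk1, Nme1 and Nme2 raise nucleotides to diphosphates and triphosphates. No gene of the 6 was called and 5 had a positive log2 fold change, and their sum was 1808 to 1961 CPM in control and 1816 to 1997 CPM in RGX-104. Uck2 was at 256, 256, 244 and 242 CPM in control and at 254, 268, 263 and 265 CPM in RGX-104. Nme1 was at 533, 513, 536 and 499 CPM in control and at 531, 546, 533 and 581 CPM in RGX-104. In both genes 2 or fewer RGX-104 libraries lay within the control range, and the log2 fold change was 0.07 ± 0.05. Cmpk1, which phosphorylates UMP and CMP, was at 33.8, 30.3, 32.8 and 35.3 CPM in control and at 39.4, 45.9, 32.9 and 30.2 CPM in RGX-104: replicates 5 and 6 were above the control libraries and replicates 7 and 8 were not. Nme2 was at 933, 1056, 923 and 916 CPM in control and at 868, 900, 986 and 992 CPM in RGX-104. Its reads are uncertain, since 98.6% of the 50-base stretches at its transcript end also occur in other genes, most of them in Gm20390, a gene model that spans Nme1 and Nme2. Exons of Nme1 share 418 bases with Gm20390 on the same strand. No 50-base stretch at the end of its longest protein-coding transcript (3181 bases) occurs in another gene. Ends of its other transcripts were not searched, so reads of Nme1 may be uncertain too. Guk1 ranged from 84.8 to 102 CPM and Uck1 from 20.4 to 35.2 CPM over the 8 libraries.

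**Figure D2:**
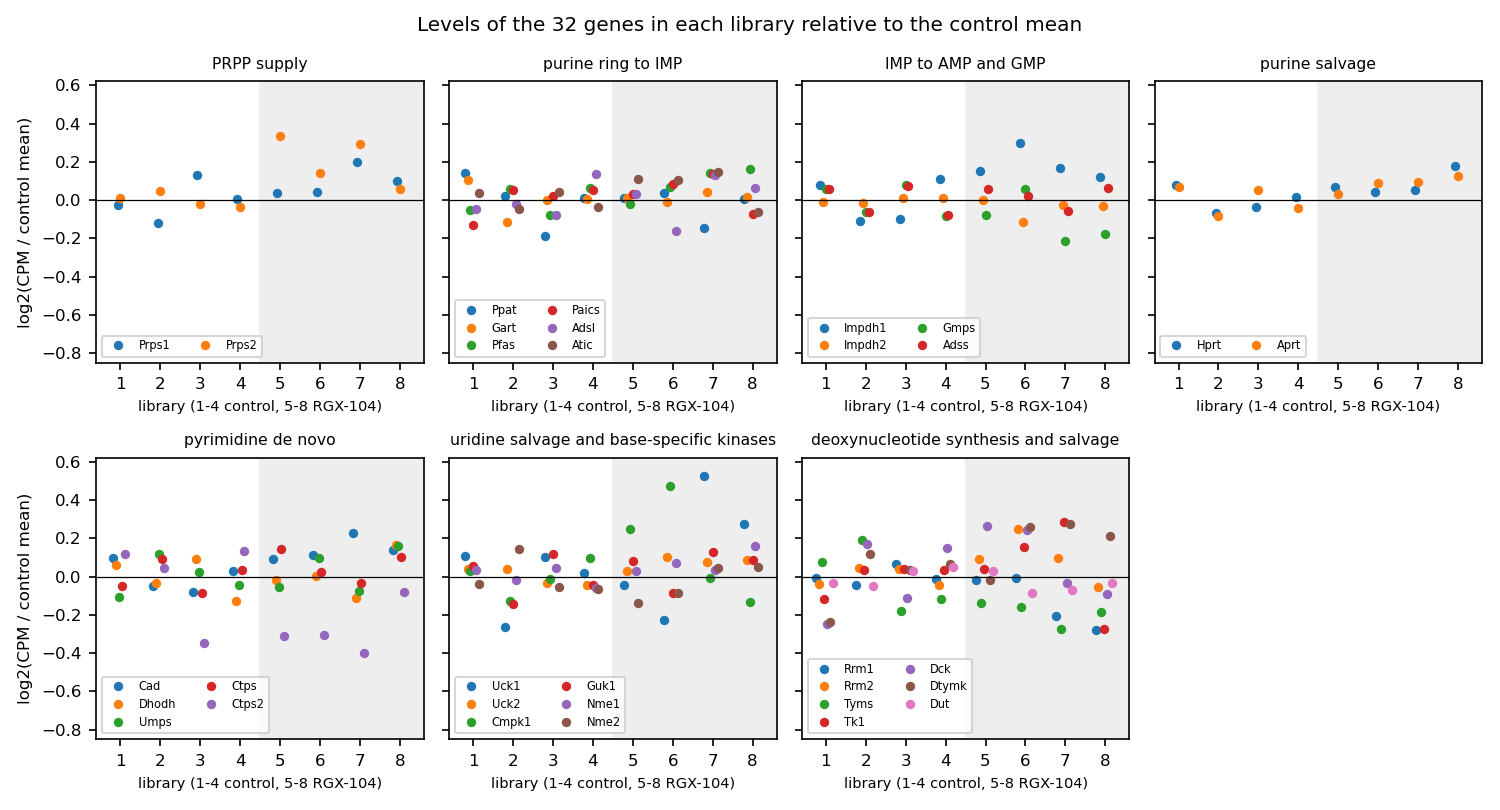
Level of each of the 32 genes in each library, as log2 of CPM over the gene's control mean (vertical axis), in one panel per pathway step, with RGX-104 libraries (5 to 8) shaded. Points of control and RGX-104 libraries overlap for 30 of the 32 genes, and the widest scatter is that of genes with low counts such as Uck1 and Cmpk1.

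Deoxynucleotides come from ribonucleotide reductase, whose large subunit is Rrm1 and whose S phase subunit is Rrm2. Rrm1 (chr7:102441695-102469771) was at 318, 310, 335 and 318 CPM in control and at 316, 318, 278 and 264 CPM in RGX-104. Replicates 5 and 6 lay within the control range while replicates 7 and 8 lay below it, and the log2 fold change was -0.12 ± 0.06 (adjusted p = 0.369). Rrm2 ranged from 189 to 201 CPM in control and from 188 to 232 CPM in RGX-104, with a log2 fold change of 0.10 ± 0.06. Tyms (chr5:30038546-30073645), the thymidylate synthase, was at 136, 148, 115 and 120 CPM in control and at 118, 116, 107 and 114 CPM in RGX-104. Replicates 5 and 6 of RGX-104 lay in the lower part of a wide control range and replicates 7 and 8 below it, and the log2 fold change of -0.19 ± 0.08 (95% interval -0.34 to -0.03) was not called (adjusted p = 0.250).

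Dtymk (chr1:93792576-93802068), which phosphorylates thymidine monophosphate, was at 78.0, 99.6, 94.1 and 96.1 CPM in control and at 90.7, 110, 111 and 107 CPM in RGX-104, so that 3 of 4 RGX-104 libraries were above every control library (log2 fold change 0.19 ± 0.08, adjusted p = 0.314). Dut, which keeps uracil out of DNA by breaking down dUTP, was at 412, 408, 430 and 436 CPM in control and at 430, 398, 402 and 412 CPM in RGX-104 (log2 fold change -0.04, 95% interval -0.14 to 0.06). The salvage kinases Tk1 and Dck ranged from 32.4 to 47.8 and from 24.5 to 35.0 CPM over the 8 libraries. As a step these 7 genes had 4 positive and 3 negative log2 fold changes, with a median of 0.07, and their sum was 1195 to 1240 CPM in control and 1144 to 1252 CPM in RGX-104.

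Genes of the cell cycle were measured in the same libraries. Of 27 tested S phase genes edgeR called none, nor did DESeq2 or limma-voom. With each tool 7 of them had an unadjusted p under 0.05, against 13.8% of all genes in edgeR. In edgeR 2 of these 7 were higher and 5 lower. Mcm7, part of the replicative helicase, was at 1238 ± 80.6 CPM in control and 1136 ± 77.9 CPM in RGX-104 (SD, n = 4 each, log2 fold change -0.12, adjusted p = 0.273). Of 22 tested genes of G2 and mitosis 3 fell, Nusap1 (-0.53), Hmgb2 (-0.35) and Cenpe (-0.29), and none rose. Over all genes 1.78% were called lower. A negative log2 fold change was found for 21 of the 22, against 6010 of 12162 over all genes. The Nusap1 call was lost without control replicate 2 (adjusted p = 0.0664) and without RGX-104 replicates 7 (0.0581) or 8 (0.0650). The Hmgb2 call was lost with DESeq2 (0.0847), without control replicates 2 (0.0833) or 3 (0.0819), and without RGX-104 replicates 7 (0.0816) or 8 (0.0962). The Cenpe call was lost without any one of control replicates 1, 2 and 3 and RGX-104 replicates 6, 7 and 8, with adjusted p-values from 0.0922 to 0.180. DESeq2 called Hmmr in place of Hmgb2 (log2 fold change -0.40, adjusted p = 0.0420). Mki67, a marker of cycling cells, was at 223, 231, 246 and 223 CPM in control and at 243, 193, 155 and 136 CPM in RGX-104 (edgeR adjusted p = 0.124, not called). Of 12 alternatives 1 called Mki67, the edgeR fit without RGX-104 replicate 5 (adjusted p = 0.00174). Over the 12 its adjusted p reached 0.372, and its log2 fold change ran from -0.514 to -0.227. Top2a, named after its values were seen, was at 1060, 1024, 998 and 1020 CPM in control and at 1097, 1023, 908 and 823 CPM in RGX-104. Rrm1, Tyms, Mki67 and Top2a were thus all below the control range in replicates 7 and 8 and not in replicate 5. For Tyms the margin was slight (114.1 CPM in replicate 8, against 114.5 CPM in the lowest control). These genes and the following were picked out with their values known. Tpx2, Hmgb2, Hmmr, Pola1 and E2f3 showed the same pattern, and Rrm2, Ccnb1, Cdk1 and Cdc20 did not. How many genes have this pattern was not counted. The part of cell cycle state in the Rrm1 and Tyms values was not tested.

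**Figure D3:**
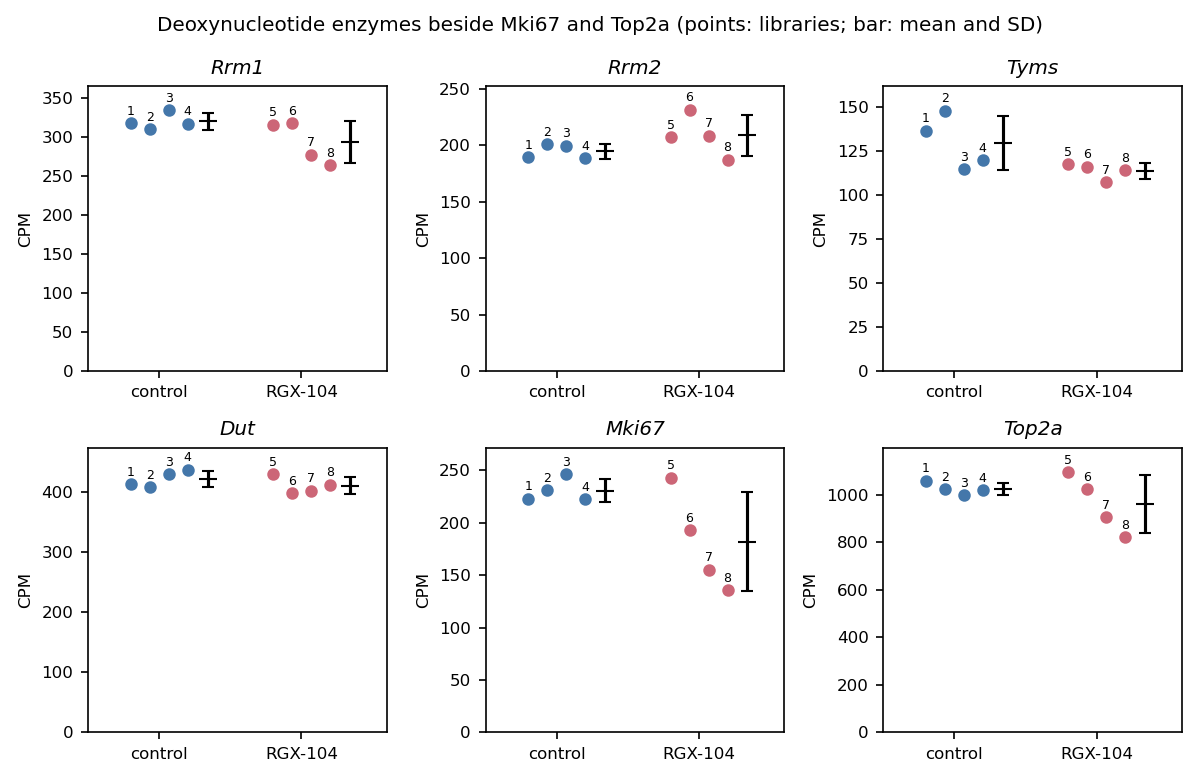
CPM (vertical axes, from 0) in each library for Rrm1, Rrm2, Tyms, Dut, Mki67 and Top2a, with library numbers beside the points and a bar for the mean and SD of each group of 4. RGX-104 replicates 7 and 8 lie below the control libraries for Rrm1, Tyms, Mki67 and Top2a. For Dut replicate 7 lies below and replicate 8 within the control range, and for Rrm2 replicate 7 lies above and replicate 8 just below it.

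Several of these enzymes are encoded by pairs of genes, and the ratio within a pair does not depend on library scaling. The log2 ratio of Impdh1 to Impdh2 was -1.76 ± 0.11 in control and -1.53 ± 0.13 in RGX-104 (SD, n = 4 each), a difference of 0.23 with no overlap between the groups. Its exact two-sided permutation p of 0.0286 was the smallest the design allows, and it was 0.114 after adjustment over 6 pairs. That smallest p cannot pass the threshold used for the genes after this adjustment, unless several pairs reach it together. The adjusted values of the pairs therefore cannot decide whether any single ratio changed. The log2 ratio of Ctps to Ctps2 was 3.86 in control and 4.18 in RGX-104, a difference of 0.32 with overlap between the groups (exact permutation p = 0.0571, adjusted 0.114). The log2 ratio of Rrm2 to Rrm2b, the subunit that serves cells outside S phase, was 3.98 in control and 4.36 in RGX-104, a difference of 0.38, also with overlap (exact permutation p = 0.0571, adjusted 0.114). The differences for Prps1 to Prps2 (-0.11), Uck1 to Uck2 (0.07) and Nme1 to Nme2 (0.11) had adjusted exact permutation p-values from 0.300 to 0.800, and Uck1 to Uck2 changed sign when control replicate 2 (-0.03) or RGX-104 replicate 7 (-0.06) was left out.

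**Figure D4:**
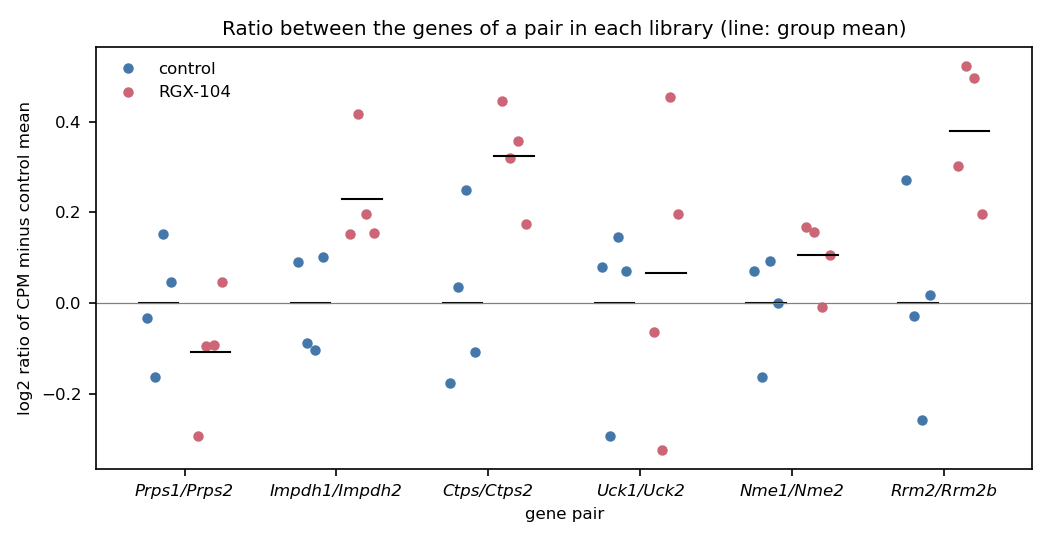
Log2 ratio of CPM between the genes of each pair in each library, minus the pair's control mean (vertical axis), with lines for group means. Only Impdh1/Impdh2 has RGX-104 libraries that all lie above the control libraries, and for Uck1/Uck2 the RGX-104 libraries span the control range.

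Called differences were found among genes around the pathway. One-carbon units for purine and thymidylate synthesis come from serine through folate enzymes, and of 12 tested genes of that list 2 fell and none rose. Mthfd2 (chr6:83305704-83326011), the mitochondrial folate dehydrogenase, was at 732, 780, 779 and 735 CPM in control and at 570, 561, 606 and 557 CPM in RGX-104, with every RGX-104 library below every control library (log2 fold change -0.40 ± 0.05, adjusted p = 6.26e-06). Aldh1l2, which oxidises mitochondrial formyl-folate, was at 9.17, 7.80, 10.5 and 8.06 CPM in control and at 0.912, 1.25, 0.469 and 1.30 CPM in RGX-104 (log2 fold change -3.17 ± 0.31, adjusted p = 8.32e-07). Its exons share 1056 bases with the opposite-strand gene D10Wsu102e, so its reads are uncertain. Other genes of the list were not called, among them Shmt2 (501 ± 19.9 and 455 ± 16.2 CPM, adjusted p = 0.159), Mthfd1 and Mthfd1l, named after their values were seen.

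Glutamine and aspartate give nitrogen to both rings. Of 8 tested genes that make, use or carry them 1 was called, Asns, which uses both up. Asns was at 38.4, 42.7, 51.0 and 43.7 CPM in control and at 19.8, 31.3, 20.3 and 22.3 CPM in RGX-104 (log2 fold change -0.91, adjusted p = 0.000288). None of 7 tested genes of ribose phosphate supply was called by any of the 3 tools (1 with an unadjusted p under 0.05 in edgeR), and Tkt, the transketolase, was at 233 ± 20.6 and 247 ± 16.5 CPM. Pgd and Rpe of that list have repeated entries, so their values are uncertain. Among 14 regulators Max rose and Atf4, a transcription factor of the amino acid stress response, fell, with 717 ± 56.6 CPM in control, 466 ± 25.1 CPM in RGX-104 and a log2 fold change of -0.62 (edgeR adjusted p = 1.5e-07). MYC acts as a dimer with MAX, and Max was at 181, 175, 203 and 197 CPM in control and at 215, 206, 242 and 236 CPM in RGX-104, without overlap (log2 fold change 0.25 ± 0.06, adjusted p = 0.0362). That call was lost without control replicate 1 (adjusted p = 0.125) or 2 (0.130) and without RGX-104 replicate 7 (0.138) or 8 (0.136). Myc itself was at 147 ± 19.0 CPM in control and 162 ± 5.83 CPM in RGX-104 (log2 fold change 0.14, adjusted p = 0.410).

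None of 20 tested genes of nucleotide breakdown and pool sanitation was called by edgeR or limma-voom, where 2 had an unadjusted p under 0.05. DESeq2 called 1 of them higher, Itpa, which clears inosine triphosphate (log2 fold change 0.24, adjusted p = 0.0434 with DESeq2 and 0.108 with edgeR). Dctpp1, which removes damaged deoxycytidine triphosphate, was at 216 ± 7.81 and 233 ± 17.5 CPM. None of 6 tested nucleoside and nucleotide carriers was called by any tool, with 0 at an unadjusted p under 0.05 in edgeR and 1 in DESeq2. The nucleoside transporter Slc29a1 was at 155 ± 7.46 and 161 ± 17.5 CPM.

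**Figure D5:**
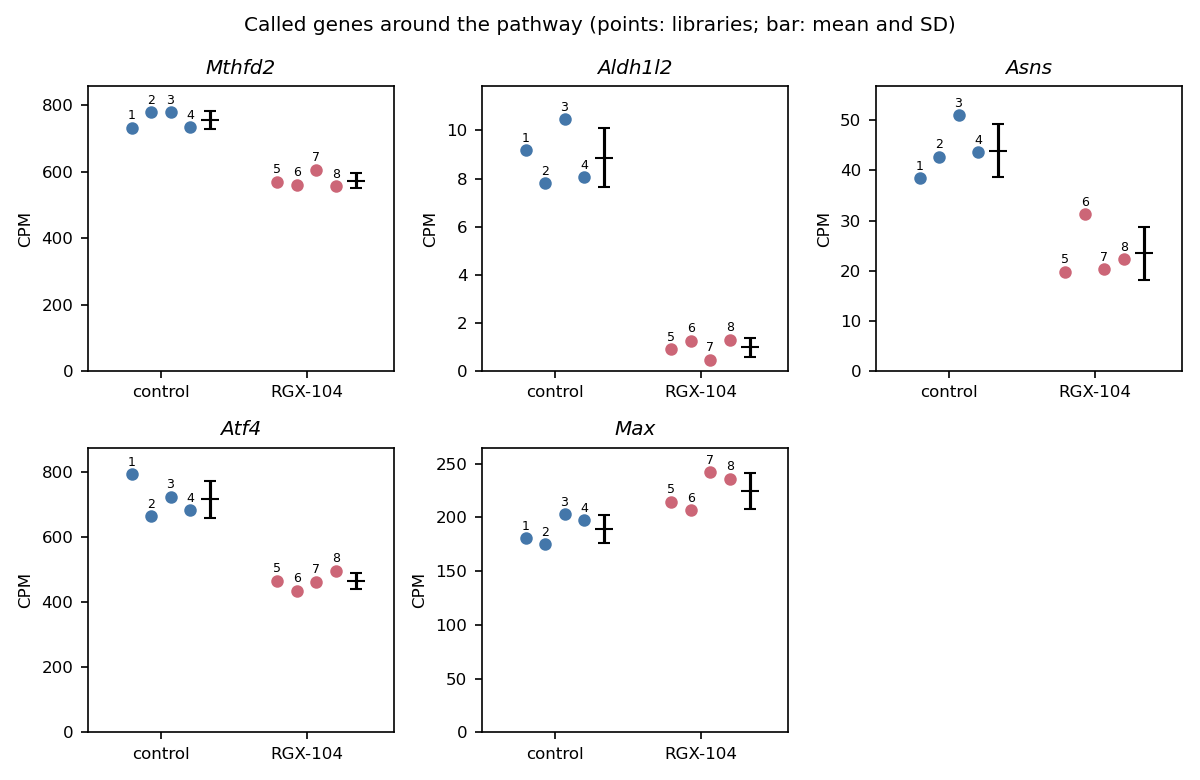
CPM (vertical axes, from 0) in each library for 5 called genes around the pathway, with a bar for the mean and SD of each group of 4. Control and RGX-104 libraries are separate for Mthfd2, Aldh1l2, Asns, Atf4 and Max, and Max alone is higher in RGX-104.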

How the data were processed

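Per the labels' protocols, a Lexogen 3′ FWD kit, which reads transcript ends, was used on total RNA. The deposited table holds whole-number read counts per gene symbol, not normalised by the authors. The submitters' processing notes name STAR 2.7.8a, R 4.1.0, DESeq2 1.4 and GRCm38. Not given in the sources used here are the counting tool, its strand setting, how reads with several matches were treated and whether molecular identifiers were used, so counting precision covers counting error only. All 8 columns were matched to samples by number and group word in the titles (0 columns left over).

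The main test was edgeR 4.0.16 (R 4.3.3) on all 8 libraries, with the filterByExpr filter, TMM scaling, glmQLFit and glmQLFTest (two-sided). Group was its only term, and p-values were adjusted by Benjamini-Hochberg over 12162 genes at a threshold of 0.05. CPM are counts over the TMM-scaled library size. A standard error is the log2 fold change over the square root of F, and 95% intervals use the test's t quantile. The coefficient of variation between libraries of a group, the square root of edgeR's common dispersion, was 14.5%. It may hold technical variation alone. Within a group, pairs of libraries had a chi-square of 6.34 to 9.6 per degree of freedom, so none was counted as a duplicate. The script was tested on simulated data. DESeq2 1.42.0, limma-voom (limma 3.58.1), DESeq2 size factors, no filter and leaving out each library were the alternatives. Pair ratios were tested by exact permutation over the 8 libraries.

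Shared 50-base stretches and exon overlaps of at least 100 bases were found in GENCODE M21. The stretches were those at the end of each gene's longest protein-coding transcript. Among the 32 genes, exons of Paics and Ppat overlap each other by 272 bases, and Gart, Uck2, Umps, Nme1 and Nme2 overlap other genes. None of the 32 symbols is repeated in the table, in which 2379 entries carry an appended number.

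Named genes were all 32 members (every library for the 3 with the smallest p in a step and the most abundant), every called gene of the related lists or else its most abundant, and Myc, Mki67 and Mthfd2. Members and lists were chosen with earlier results of these data known. Some named genes are not reported here.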

Additional observations from a re-analysis of the deposited data

Results flagged for a closer look

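In 4 of 94 groups of 4 libraries (47 named genes, 2 groups each) 1 library stood apart from the other 3 by Dixon's test at the 95% level, which chance alone flags in about 1 of 20 groups. Hprt was at 206 CPM in RGX-104 replicate 8 and at 188 to 191 CPM in replicates 5 to 7. Nme2 was at 1056 CPM in control replicate 2 and at 916 to 933 CPM in the other controls, and its fold change turned positive without that library (log2 fold change 0.02). Tk1 was at 36.1 CPM in control replicate 1 and at 40.2 to 40.4 CPM in the others. Mcm7 was at 1252 CPM in RGX-104 replicate 5, against 1089 to 1113 CPM in replicates 6 to 8.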

How the results depend on the processing

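No gene of the 32 was called in either direction under any of the 12 alternatives, and the median of their log2 fold changes stayed between 0.05 and 0.07. Values near 0 changed sign when 1 library was left out, with log2 fold changes from -0.078 to 0.029 for Ppat, -0.021 to 0.050 for Gart, -0.019 to 0.076 for Adsl, -0.0024 to 0.048 for Adss, -0.042 to 0.051 for Dhodh, -0.0090 to 0.075 for Umps, -0.059 to 0.020 for Nme2 and -0.016 to 0.16 for Tk1. The difference in the Uck1 to Uck2 ratio ran from -0.064 to 0.20. Mthfd2, Aldh1l2, Asns and Atf4 were called under all 12 alternatives. With library totals in place of scaling factors, chosen after seeing the data, the members' summed CPM stood 2.25% above control, against 1.98%. Over all genes, 108 were higher and 216 lower; DESeq2 called 190 higher, and leaving out 1 library gave 57 to 93 higher and 144 to 211 lower. Of the related lists 1 gene was higher and 8 were lower; DESeq2 called 2 higher (Itpa and Max), and leaving out 1 library gave 0 to 1 higher and 4 to 11 lower. The cause was not tested, beyond the smaller number of samples when a library was left out. No paired analysis was possible because replicate numbers are not shared between the groups.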
